A study of Mus musculus with 24 samples.

Results

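The 9 genes described here govern whether muscle mitochondria oxidise pyruvate, or carry anions and protons across the inner mitochondrial membrane, and were measured in mouse skeletal muscle. They are the pyruvate dehydrogenase kinase genes Pdk1, Pdk2, Pdk3 and Pdk4, the phosphatase genes Pdp1 and Pdp2, Pdha1, which encodes the catalytic alpha subunit of pyruvate dehydrogenase, and the uncoupling protein genes Ucp2 and Ucp3. Members were the probes that carry one of these gene names in the scanner files, which gave 18 of 56605 probes, and 16 of these passed the filter on dim probes. The 9 genes stood among 19939 gene names tested.

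The samples were 24 total RNA preparations of skeletal muscle, 8 in each of 3 groups, each on its own one-colour array. HFD_O3 mice were of the omega-3 lineage and ate a high fat diet, HFD_Cont mice were of the control lineage on that diet, and STD_Cont mice were of the control lineage on the low fat control diet. The labels give no low fat group of the omega-3 lineage, so lineage was compared under the high fat diet alone. Not given in the sources used here are the muscle, sex, age, time on diet, collection hour and how the omega-3 lineage was made.

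Pyruvate dehydrogenase turns pyruvate from glycolysis into acetyl-CoA. The kinases phosphorylate Pdha1 protein and switch the complex off, and the phosphatases remove the phosphate and switch it on. In muscle, Pdk4 and Ucp3 are known to rise during fasting and when fatty acids are abundant, and PPAR and FOXO transcription factors are known regulators of Pdk4.

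The array spots were oligonucleotides of 60 bases. The probes for Pdk4, Ucp3 and Pdp2 are shown because the results turn on them, with 30 bases shown for Pdk4 and Pdp2. Coordinates are those of the scanner files, on mm9. The Pdk4 probe lies at chr6:5433441-5433500 on the minus strand, the Ucp3 probe at chr7:107630399-107630458 on the plus strand, and the Pdp2 probes at chr8:107119568-107119627 and chr8:107120490-107120549 on the plus strand. Capitals mark a TG repeat, which runs for 36 bases from base 24 of the brighter Pdp2 probe.
Pdk4 probe A_51_P350453, first 30 bases: tatgaacccatgggagactttaaactcttg
Ucp3 probe A_66_P108247: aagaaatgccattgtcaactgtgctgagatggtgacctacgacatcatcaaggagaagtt
Pdp2 probe A_55_P2788443, first 30 bases: aatcttcagggcacttttctataTGTGTGT
Pdp2 probe A_66_P111285, first 30 bases: gtcagcacttcagccatcgtcggcaaggct

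The share of spots well above background lay between 52.0 and 60.7% per array, no probe signal was saturated (0 spots), and the 75th percentile ran from 233.6 to 430.1 intensity units. The 3 slides carried 8 arrays each and 2 or 3 arrays of each group. The muscle genes Acta1, Ckm and Myh4 were well above background on 24 of 24 arrays, and of the brown adipocyte genes, Ucp1 on 0 of 24, Elovl3 on 1 of 24 and Cidea on 24 of 24. Nothing in the labels says whether samples of a group came from separately housed or related mice, so p-values measure the spread between these samples. In whole muscle, fewer cells of a type and less RNA per cell cannot be told apart. Levels below are log2 processed intensity minus the array's 75th percentile, and a level is set only against the same probe on other arrays.

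In muscle of HFD_Cont mice, Pdk4 and Ucp3 fell against STD_Cont. These were 2 of the 9 genes, beside 3.16% of all 19939 names (limma, adjusted p under 0.05), of which 1.52% were lower and 1.64% higher. At an unadjusted p under 0.05 there were 3 members, with Pdp1 as the third, beside 16.8% of all names. Pdk4 is the kinase gene best known for its response to fuel supply, and Ucp3 encodes the uncoupling protein typical of muscle. The other kinase genes, Pdha1 and Ucp2 did not pass the test, and Pdp1 and Pdp2 are described by probe below.

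Among the kinases, Pdk4 had a lowest, median and highest log2 level of 7.77, 8.25 and 8.62 in HFD_Cont, against 8.59, 8.78 and 8.95 in STD_Cont. In HFD_Cont, 7 of 8 arrays lay below every STD_Cont array, and the remaining array overlapped the lower end of STD_Cont. Pdk4 averaged 8.23 ± 0.23 in HFD_Cont and 8.77 ± 0.15 in STD_Cont (log2 levels, SD, n = 8 each). The log2 change was -0.54 ± 0.10 (SE), a level 0.689 times that of STD_Cont (limma adjusted p = 0.0116).

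Pdk2, the kinase gene expressed in most tissues, averaged 5.17 ± 0.09 in HFD_Cont and 5.14 ± 0.15 in STD_Cont, with a log2 change of 0.03 (95% interval -0.11 to 0.17). Pdk1, a target of hypoxia signalling, had a log2 change of 0.05 (95% interval -0.14 to 0.23). Pdk3 was dim, clear of background on 7 of 8 arrays in HFD_Cont and 4 of 8 in STD_Cont, with a log2 change of 0.20 (95% interval -0.27 to 0.66). The intervals of Pdk2 and of the probe that stood for Pdk1 end short of the change measured for Pdk4, whereas that of Pdk3 is wide. The other kept Pdk1 probes had log2 changes of 0.04, -0.07 and -0.29. The -0.29 (SE 0.13) was on probe A_55_P2590813, which averaged -3.21 in HFD_Cont and -2.92 in STD_Cont. This probe was well above background on 8 of 8 arrays in both groups, and 6 of 8 HFD_Cont arrays lay below every STD_Cont array. Its change did not pass the threshold (limma unadjusted p = 0.0314, adjusted p = 0.2435 over all probes). Pdha1, the substrate of the kinases, had a log2 change of -0.06 (95% interval -0.16 to 0.05). Its second probe had a log2 change of 0.14 (limma adjusted p = 0.690 over all probes).

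**Figure D1:**
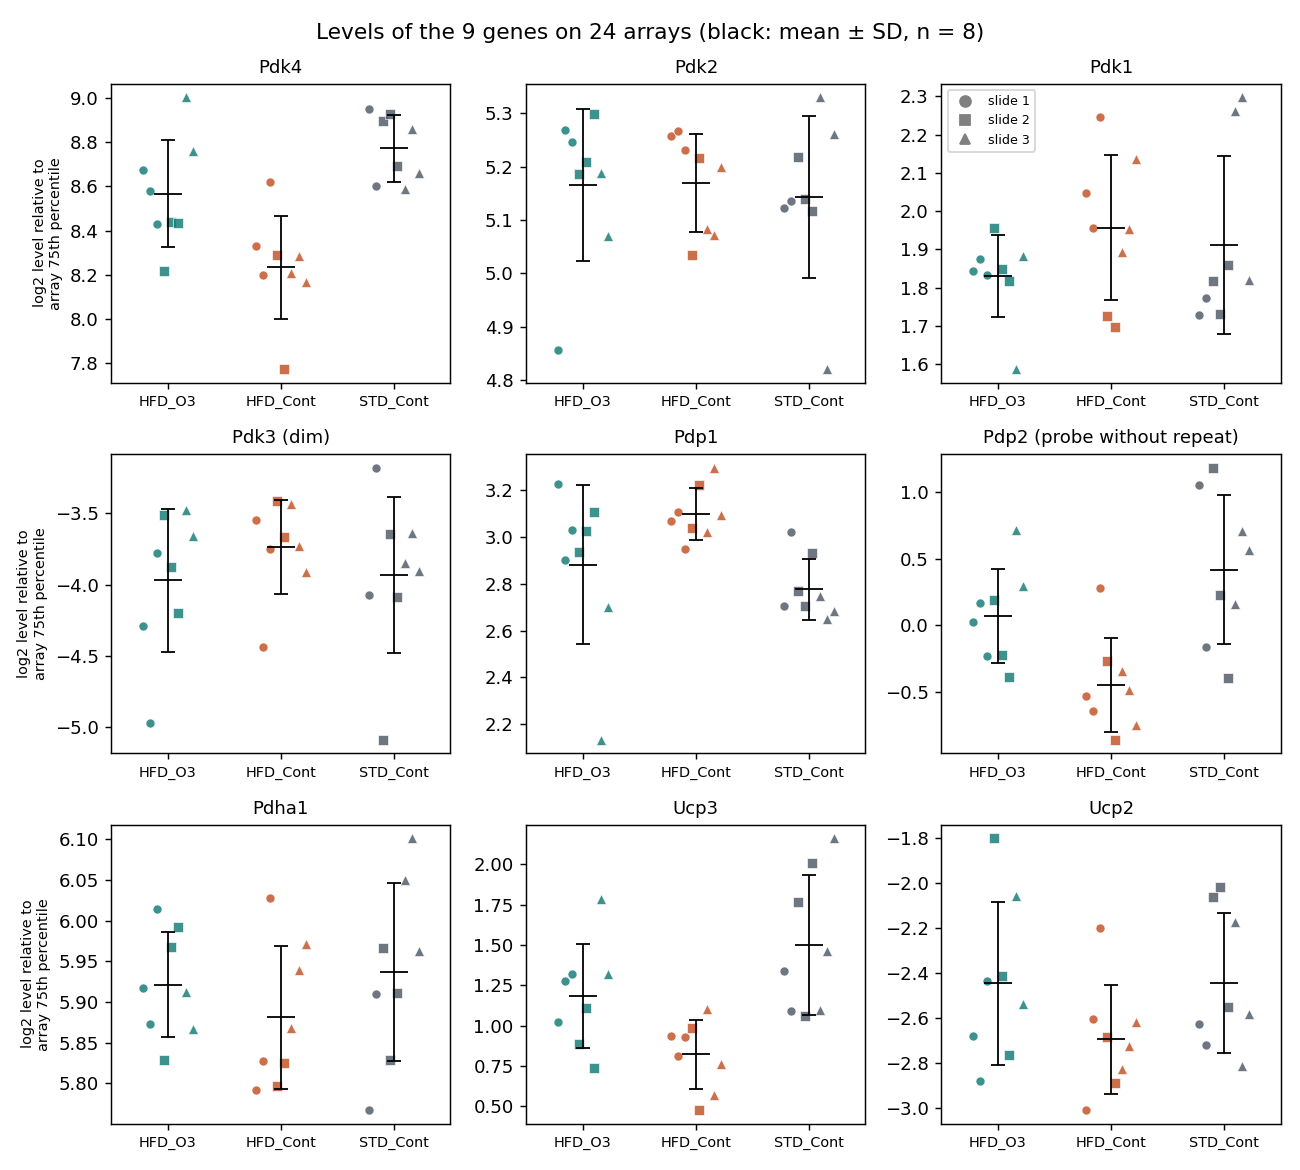
Log2 level of the 9 genes relative to the array's 75th percentile (vertical axis) on 24 arrays in HFD_O3, HFD_Cont and STD_Cont (horizontal axis), with the slide by symbol and the mean ± SD in black. Pdk4 and Ucp3 lay lower on 7 of 8 HFD_Cont arrays than on every STD_Cont array, and the panel for Pdp2 shows its probe without the TG repeat.

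Ucp3 had a lowest, median and highest log2 level of 0.48, 0.87 and 1.103 in HFD_Cont, against 1.06, 1.40 and 2.16 in STD_Cont. Again 7 of 8 HFD_Cont arrays lay below every STD_Cont array. Ucp3 averaged 0.82 ± 0.21 in HFD_Cont and 1.498 ± 0.43 in STD_Cont (log2 levels, SD, n = 8 each), a log2 change of -0.68 ± 0.16 (SE; limma adjusted p = 0.0244). The call was lost without HFD_Cont array 5 (adjusted p = 0.0537) or STD_Cont array 3 (adjusted p = 0.0520), and with no filter on dim probes (adjusted p = 0.0656).

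Ucp2, an uncoupling protein gene also used by macrophages and adipocytes, had a lowest, median and highest log2 level of -3.01, -2.71 and -2.20 in HFD_Cont, against -2.82, -2.57 and -2.02 in STD_Cont. The groups overlapped, and the log2 change was -0.25 (95% interval -0.56 to 0.06; limma adjusted p = 0.425). Its second probe was well above background on 6 of 8 arrays in each of these groups, with a log2 change of -0.18. Of the 8 measured macrophage markers, 0 passed the limma test and 1 had an unadjusted p under 0.05, and their mean log2 level per array ran from -1.17 to -0.23 in HFD_Cont and from -0.96 to -0.37 in STD_Cont.

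Within slides 1, 2 and 3, the log2 change of Pdk4 in HFD_Cont against STD_Cont was -0.39, -0.81 and -0.48, and that of Ucp3 was -0.32, -0.88 and -0.76. Both genes were lower in HFD_Cont on each slide, and neither passed the limma test within a slide, where a group had 2 or 3 arrays. Rows of the slides were not balanced: row 2 of slide 2 held 3 STD_Cont and 0 HFD_Cont arrays. Row 2 of slide 1 and row 1 of slide 2 held HFD_Cont and HFD_O3 arrays only. With slide and row as a block, the log2 change was -0.44 for Pdk4 (limma adjusted p = 0.1145) and -0.70 for Ucp3 (limma adjusted p = 0.1368), and both calls were lost.

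None of the slow fibre markers passed the limma test, and 0 of 7 had an unadjusted p under 0.05. All 7 slow fibre markers had a negative change in HFD_Cont against STD_Cont (median log2 change -0.52). Their mean log2 level per array ran from 1.91 to 7.11 in HFD_Cont and from 5.23 to 7.32 in STD_Cont. The 1.91 was HFD_Cont array 4 alone. The other HFD_Cont arrays ran from 5.10 to 7.11, close to the STD_Cont range, so the negative changes do not describe the whole group. With the slow fibre mean as a covariate, array 4 included, the log2 change was -0.53 for Pdk4 (limma adjusted p = 0.0144). It was -0.69 for Ucp3 (limma adjusted p = 0.0262). The 11 white adipocyte markers had a mean log2 level per array of 0.64 to 3.75 in HFD_Cont and 0.45 to 3.22 in STD_Cont, with 0 past the limma test and 0 at an unadjusted p under 0.05. With that mean as a covariate, the log2 change was -0.50 for Pdk4 (limma adjusted p = 0.0161) and -0.62 for Ucp3 (limma adjusted p = 0.0356).

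Of the 6 endothelial markers, Kdr, a receptor for vascular growth factor, rose in HFD_Cont against STD_Cont (log2 change 0.46, limma adjusted p = 0.0205), 5 did not pass, and 3 had an unadjusted p under 0.05. Their median log2 change was -0.01, and their mean log2 level per array ran from 0.70 to 1.06 in HFD_Cont and from 0.59 to 1.07 in STD_Cont. Of the 4 brown adipocyte markers 2 were measured, Cidea and Dio2, and 0 passed the limma test in the 3 comparisons, with 1 at an unadjusted p under 0.05 in each comparison with STD_Cont. Both had positive changes in HFD_Cont against STD_Cont (0.43 for Cidea and 0.49 for Dio2), and their mean log2 level per array ran from -0.855 to -0.29 in HFD_O3, from -1.13 to 0.23 in HFD_Cont and from -1.49 to -0.25 in STD_Cont.

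All 5 measured erythroid markers had a negative change in HFD_Cont against STD_Cont (median log2 change -0.16), with 0 past the limma test and 0 at an unadjusted p under 0.05. The median log2 change was 0.05 for the 10 fast fibre markers, and -0.19 for the 5 Schwann cell markers, with 0 in each list past the limma test and 0 at an unadjusted p under 0.05. In HFD_O3 against STD_Cont, 0 markers of the cell type lists passed the limma test, beside 0.597% of all names. An unadjusted p under 0.05 was held by 4 of 5 erythroid, 3 of 5 Schwann cell and 2 of 6 endothelial markers, beside 11.4% of all names. It was held by 1 of 11 white adipocyte, 1 of 8 macrophage, 0 of 7 slow fibre and 0 of 10 fast fibre markers. The part of the macrophage, endothelial, brown adipocyte, erythroid, fast fibre and Schwann cell markers in the results for Pdk4 and Ucp3 was not tested. The slow fibre and white adipocyte means entered only as covariates, and their part was not tested further.

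The phosphatase genes gave different pictures by gene and by probe. Pdp1, the main phosphatase of muscle, had a lowest, median and highest log2 level of 2.95, 3.08 and 3.30 in HFD_Cont, against 2.65, 2.73 and 3.02 in STD_Cont. On 7 of 8 HFD_Cont arrays it lay above every STD_Cont array, yet the log2 change of 0.32 ± 0.11 (SE) did not pass the threshold (limma adjusted p = 0.0992). The second Pdp1 probe had a log2 change of 0.28 (limma adjusted p = 0.181 over all probes).

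In HFD_O3, Pdp1 had a lowest, median and highest log2 level of 2.13, 2.98 and 3.23, and its SD was 0.34, against 0.11 in HFD_Cont and 0.13 in STD_Cont. HFD_O3 array 7 was the lowest. Without that array, the same Pdp1 change between HFD_Cont and STD_Cont had a limma adjusted p of 0.0098, and a fit of these 2 groups alone gave 0.0076. The 3 groups share 1 estimate of the spread, so an array of HFD_O3 enters the error of the other comparison.

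For Pdp2, the brighter probe stood for the gene and had a log2 change of -0.02 ± 0.07 (SE; limma adjusted p = 0.925) in HFD_Cont against STD_Cont. This is the probe with the TG repeat printed above. The other probe, which has no such repeat and was singled out after its values were seen, had a lowest, median and highest log2 level of -0.85, -0.51 and 0.28 in HFD_Cont, against -0.39, 0.40 and 1.18 in STD_Cont. On that probe 5 of 8 HFD_Cont arrays lay below every STD_Cont array.

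The log2 change on the Pdp2 probe without the repeat was -0.86 ± 0.21 (SE; limma adjusted p = 0.0270 over 29249 probes, of which 2.77% passed). Leaving out probes with repeats gave the same change over gene names (limma adjusted p = 0.0256), and the mean of both probes gave -0.44 (limma adjusted p = 0.0227). The call was kept in 13 of 18 other settings and in 19 of 24 fits that left out 1 array. It was lost with slide and row as a block (log2 change -0.92, limma adjusted p = 0.1457), with no filter on dim probes (-0.86, limma adjusted p = 0.0740), and within slides 1, 2 and 3 (-0.74, -0.90 and -1.002, limma adjusted p = 0.721, 0.504 and 0.619). It was also lost without HFD_Cont array 2 (limma adjusted p = 0.0526) or 5 (0.0587), and without STD_Cont array 1 (0.0687), 3 (0.0581) or 7 (0.0539). What the repeat probe binds was not tested.

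**Figure D2:**
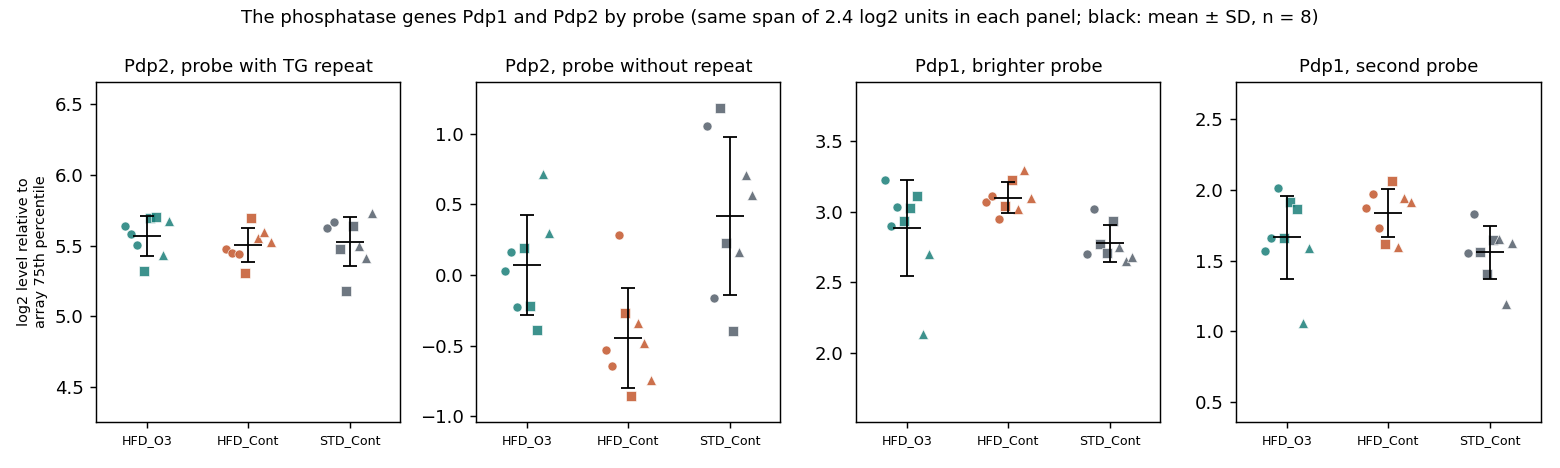
Log2 levels of Pdp2 and Pdp1 by probe on 24 arrays in HFD_O3, HFD_Cont and STD_Cont, with an equal span on each vertical axis, the slide by symbol and the mean ± SD in black. The Pdp2 probe without the repeat averaged -0.45 in HFD_Cont and 0.42 in STD_Cont, whereas the probe with the repeat averaged 5.51 and 5.53 in the same groups.

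HFD_O3 was then set against STD_Cont. This comparison shares the STD_Cont arrays with the one above, and the next one shares HFD_Cont and HFD_O3. None of the 9 genes passed the limma test and 0 had an unadjusted p under 0.05, beside 0.597% of all names past the threshold and 11.4% at the unadjusted level. Pdk4 had a lowest, median and highest log2 level of 8.22, 8.51 and 9.004 in HFD_O3, and 5 of 8 arrays lay below every STD_Cont array. Its log2 change was -0.20 (95% interval -0.42 to 0.01; limma adjusted p = 0.479).

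Ucp3 had a lowest, median and highest log2 level of 0.74, 1.195 and 1.79 in HFD_O3, overlapping STD_Cont. Its log2 change was -0.32 (95% interval -0.65 to 0.02; limma adjusted p = 0.478). The Pdp2 probe without the repeat had a log2 change of -0.35 (limma adjusted p = 0.583 over all probes, of which 0.571% passed). The Pdk1 probe A_55_P2590813 averaged -3.32 ± 0.28 in HFD_O3 and -2.92 ± 0.25 in STD_Cont. Its log2 change of -0.40 did not pass the threshold (limma adjusted p = 0.176 over all probes). The Pdk1 probe that stood for the gene had a log2 change of -0.08.

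Between the lineages under the high fat diet, none of the 9 genes passed the limma test in HFD_O3 against HFD_Cont, and 0% of all names did. At an unadjusted p under 0.05 there were 2 members, Pdk4 and Ucp3, beside 7.34% of all names. Pdk4 averaged 8.57 ± 0.24 in HFD_O3 and 8.23 ± 0.23 in HFD_Cont (log2 levels, SD, n = 8 each), a log2 difference of 0.33 (95% interval 0.12 to 0.55; limma adjusted p = 0.547). Ucp3 averaged 1.18 ± 0.32 in HFD_O3 and 0.82 ± 0.21 in HFD_Cont, a log2 difference of 0.36 (95% interval 0.03 to 0.69; limma adjusted p = 0.661).

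For Pdk4 and Ucp3, 7 of 8 HFD_O3 arrays lay above the HFD_Cont median, and the same held for the Pdha1 probe that stood for the gene. On the second Pdha1 probe, 3 of 8 HFD_O3 arrays lay above that median (log2 difference -0.09). The Pdp2 probe without the repeat averaged 0.07 ± 0.35 in HFD_O3 and -0.45 ± 0.35 in HFD_Cont (log2 difference 0.52, limma adjusted p = 0.661 over all probes). In the order of mean levels, Pdk4, Ucp3 and this Pdp2 probe were lowest in HFD_Cont, then HFD_O3, then STD_Cont. For these, only the ends of that order, HFD_Cont and STD_Cont, differed past the threshold. Pdha1 (5.881, 5.921 and 5.937) and Ucp2 (-2.696, -2.447 and -2.444) had the same order on the probes that stood for them, and neither passed the limma test. The second Pdha1 probe had the reverse order (-2.632, -2.724 and -2.769). The second Ucp2 probe (-4.307, -3.852 and -4.128) and the Pdp2 probe with the repeat (5.505, 5.568 and 5.529) were highest in HFD_O3. How common the order HFD_Cont, HFD_O3, STD_Cont was over all names was not tested. On the probes that stood for the gene, the remaining members had log2 differences between HFD_O3 and HFD_Cont from -0.23 for Pdk3 to 0.25 for Ucp2. The dim Pdk3 probe was well above background on 5 of 8 HFD_O3 and 7 of 8 HFD_Cont arrays, and passed the filter through HFD_Cont only. The second Ucp2 probe was well above background on 5 of 8 HFD_O3 and 6 of 8 HFD_Cont arrays. Its log2 difference was 0.455 (limma unadjusted p = 0.0267, adjusted p = 0.662 over all probes). Cell type markers between HFD_O3 and HFD_Cont were 0 past the limma test and 0 at an unadjusted p under 0.05. Of 11 white adipocyte markers, 10 had a negative log2 difference and 1 a positive one (median -0.94). All 5 Schwann cell (median -0.40) and all 5 erythroid markers (median -0.11) had negative differences. Of 7 slow fibre markers, 5 had positive ones (median 0.27). The part of these markers in the values of Pdk4 and Ucp3 was not tested.

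**Figure D3:**
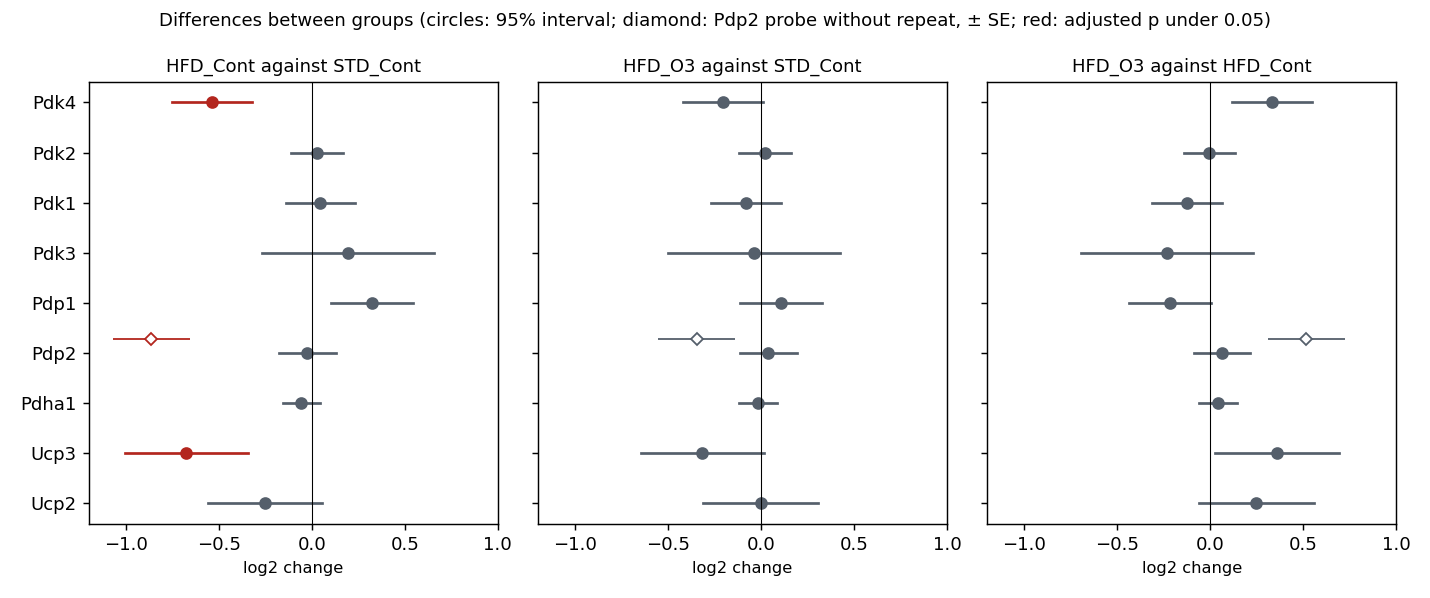
Log2 change (horizontal axis) of the 9 genes in the 3 comparisons, with circles and 95% intervals for the probe that stood for the gene, and a diamond with ± SE for the Pdp2 probe without the repeat. Red marks a limma adjusted p under 0.05, which Pdk4, Ucp3 and that Pdp2 probe reached in HFD_Cont against STD_Cont.

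Within groups, Pdp1 and Pdk4 ran in opposite directions from array to array. On levels centred on group means, Pearson's r over 24 arrays was -0.60 (permutation p = 0.00369, adjusted p = 0.0148 over 4 pairs) and Spearman's rho was -0.60 (permutation p = 0.00374, adjusted p = 0.0150). Leaving out the 2 arrays farthest from the median of Pdp1, HFD_O3 1 and 7, gave r = -0.59 (permutation p = 0.00432). Leaving out the 2 farthest in Pdk4, HFD_Cont 5 and HFD_O3 7, gave r = -0.44 (permutation p = 0.0592). The relation past the threshold therefore rests in part on those arrays. Among all pairs of members, Pdp1 with Pdk4 did not have the largest group-centred r in size. It was 0.65 for Pdk1 with Pdha1, and -0.62 for Ucp2 with Pdp2 on its probe with the repeat. For Pdp1 with Ucp3 it was -0.52. These other pairs were not tested by permutation, and the adjusted p-values do not cover them.

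Within HFD_O3, HFD_Cont and STD_Cont, r between Pdp1 and Pdk4 was -0.71, -0.59 and -0.54 (exact permutation p = 0.0842, 0.138 and 0.208, n = 8 each). Within slides 1, 2 and 3, it was -0.49, -0.53 and -0.54. Pdk4 and Ucp3, both lower in HFD_Cont, had a group-centred r of 0.39 (permutation p = 0.0485, adjusted p = 0.0970) and rho of 0.35 (permutation p = 0.113, adjusted p = 0.151). Within HFD_O3, HFD_Cont and STD_Cont that r was 0.78, 0.59 and -0.09 (exact permutation p = 0.0328, 0.140 and 0.827, n = 8 each). Without HFD_Cont 5 and HFD_O3 7 that r was 0.16 (permutation p = 0.466). The pairs Ucp2 with Ucp3 and Pdk2 with Pdk4 had r of 0.02 (permutation p = 0.947, adjusted p = 0.947) and -0.26 (permutation p = 0.220, adjusted p = 0.293). Their rho was 0.08 (permutation p = 0.712, adjusted p = 0.712) and -0.36 (permutation p = 0.104, adjusted p = 0.151).

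**Figure D4:**
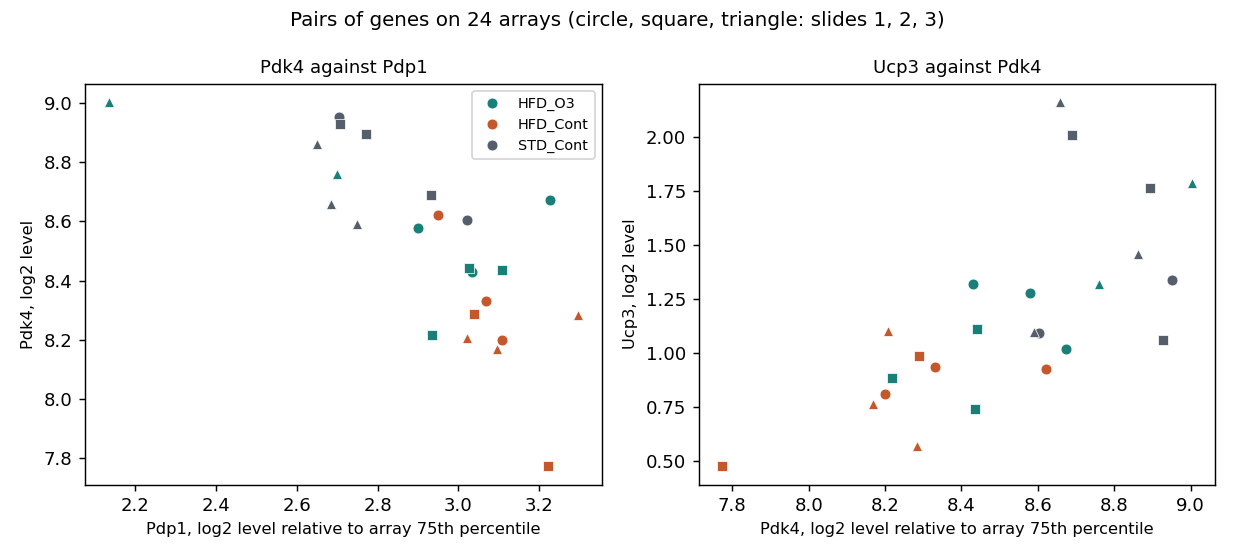
Log2 levels on 24 arrays, Pdk4 against Pdp1 and Ucp3 against Pdk4, coloured by HFD_O3, HFD_Cont and STD_Cont, with the slide by symbol. Arrays high in Pdp1 were low in Pdk4 (group-centred r = -0.60).

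The gene names whose levels ran most like those of Pdk4 over the 24 arrays, among 13594 with a plain symbol, were Fbxo30 (r = 0.91), Ppp1r15a, Tmem140, Nufip1, Hmgb2 and Cir1 (r = 0.88). Centred on group means, their r lay between 0.77 for Nufip1 and 0.82 for Cir1. For Ucp3 they were Pold3 (r = 0.87), Arrdc2, C2cd3, Slc10a6, Apbb3 and Mterf4 (r = 0.80), with group-centred r from 0.66 for Apbb3 to 0.85 for Pold3. All points share the arrays and their scaling, and these values are a description. Arrdc2 had the largest log2 change among these 12 names in HFD_Cont against STD_Cont, -1.83 (limma adjusted p = 0.0143).

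Other genes of pyruvate handling did not pass the test in HFD_Cont against STD_Cont. Of 14 measured genes, 0 passed the limma test and 2 had an unadjusted p under 0.05, and the median log2 change was -0.01, beside 0.01 over all names. The 2 were the lactate exporter gene Slc16a3 (log2 change -0.36, limma adjusted p = 0.0800) and the pyruvate carboxylase gene Pcx (-0.26, limma adjusted p = 0.0870). The complex's own Pdhb had a log2 change of 0.003. Of 5 other measured mitochondrial carriers, 0 passed the limma test and 0 had an unadjusted p under 0.05, with log2 changes of -0.08 for the adenine nucleotide carrier gene Slc25a5 (limma adjusted p = 0.701) and -0.05 for Slc25a14 (limma adjusted p = 0.760).

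Among 16 known regulators of these genes, 3 fell in HFD_Cont against STD_Cont, 0 rose and 13 did not pass the test. Of all names, 1.52% fell and 1.64% rose past the threshold. At an unadjusted p under 0.05 there were 5 regulators, beside 16.8% of all names, and the list's median log2 change was 0.01. Foxo1, a fasting-responsive transcription factor that acts on the Pdk4 promoter, averaged 2.16 ± 0.14 in HFD_Cont and 2.80 ± 0.31 in STD_Cont, a log2 change of -0.64 ± 0.14 (SE; limma adjusted p = 0.0186). The related Foxo3 fell by 0.45 on the log2 scale (limma adjusted p = 0.0221), and Cebpb, a transcription factor induced by glucocorticoids, fell by 0.64 (limma adjusted p = 0.0132). The fatty acid receptor genes Ppara and Ppard had log2 changes of 0.01 and 0.02, and neither passed the test.

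Among 21 measured fatty acid responsive genes, 1 rose, 1 fell and 19 did not pass, beside 3.16% of all names past the threshold. An unadjusted p under 0.05 was held by 9, beside 16.8% of all names, and the median log2 change was -0.07. Ehhadh, a peroxisomal oxidation gene, fell by 0.84 (limma adjusted p = 0.0274), and Decr1, needed for unsaturated fatty acids, had a log2 change of 0.28 (limma adjusted p = 0.0431).

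In HFD_O3 against STD_Cont, 0 genes of these 4 lists passed the limma test, beside 0.597% of all names. An unadjusted p under 0.05 was held by 8 fatty acid responsive genes, 3 regulators, 1 gene of pyruvate handling and 0 carriers. The share of all names at that level was 11.4%. The smallest p-values belonged to Decr1 (log2 change 0.31, limma adjusted p = 0.0600) and the muscle fatty acid binding protein gene Fabp3 (0.49, 0.116), to Foxo1 (-0.44, 0.178) and Cebpb (-0.38, 0.210), to Slc16a3 (-0.31, 0.260) and Pcx (-0.13, 0.589), and to the carrier genes Slc25a27 (0.09, 0.720) and Slc25a5 (-0.09, 0.782).

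In HFD_O3 against HFD_Cont, 0 genes of the 4 lists passed the limma test, beside 0% of all names. An unadjusted p under 0.05 was held by 4 fatty acid responsive genes, 1 regulator, 0 genes of pyruvate handling and 0 carriers. The share of all names at that level was 7.34%. The smallest p-values belonged to the acyl-CoA thioesterase genes Acot2 (log2 difference 0.50, limma adjusted p = 0.607) and Acot1 (0.78, 0.618), to Cebpb (0.27, 0.677) and the glucocorticoid receptor gene Nr3c1 (-0.11, 0.708), to the mitochondrial pyruvate carrier gene Mpc2 (-0.08, 0.720) and Pcx (0.12, 0.758), and to Slc25a27 (0.14, 0.708) and the phosphate carrier gene Slc25a3 (-0.07, 0.833).

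**Figure D5:**
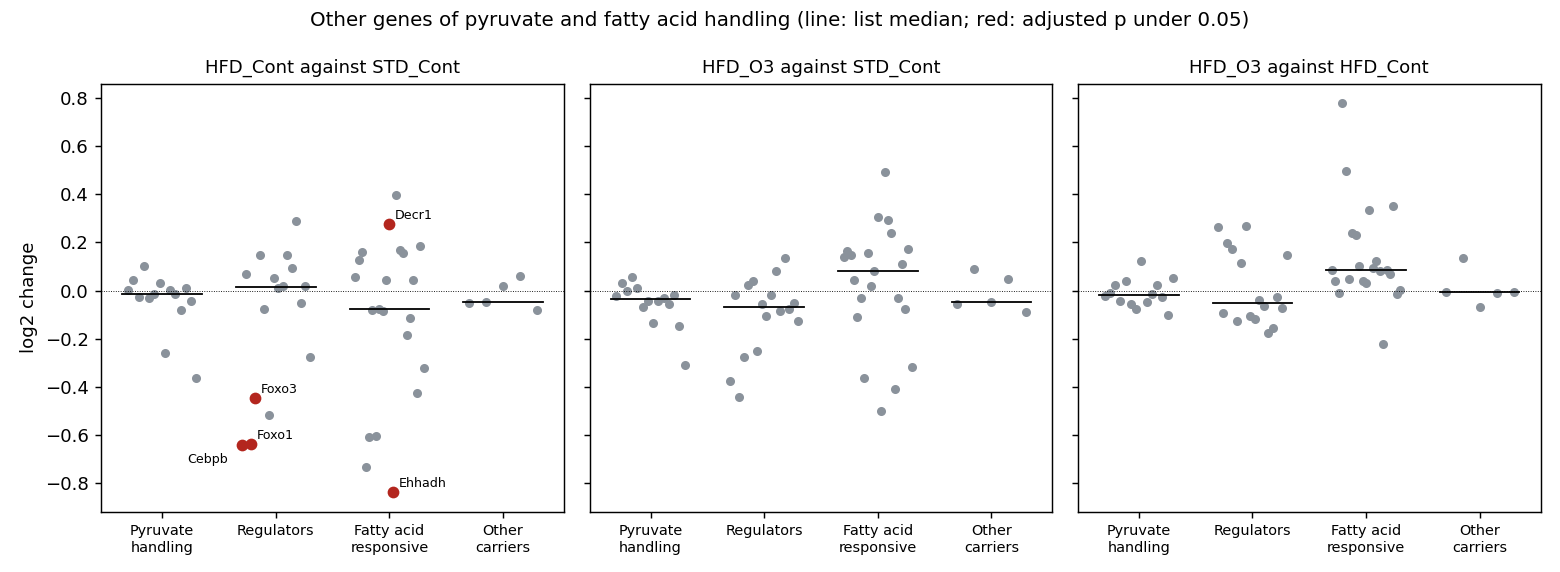
Log2 change (vertical axis) of other genes of pyruvate handling, regulators, fatty acid responsive genes and carriers in the 3 comparisons, 1 point per gene, with the list median as a line. Red points passed the limma test, and they were Foxo1, Foxo3, Cebpb, Ehhadh and Decr1 in HFD_Cont against STD_Cont.

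The stretches before the start sites of Pdk4 and Ucp3 are shown because both genes fell in HFD_Cont. They come from RefSeq on GRCm38.p6, 250 bases each, at chr6:5496279-5496528 on the minus strand and chr7:100472741-100472990 on the plus strand. Capitals mark matches on either strand to AGGTCA (a nuclear receptor half-site), GTAAACA (a FOXO motif), GGGCGG (the GC box), TATAAA (the TATA box) and CCAAT (the CCAAT box).
Pdk4: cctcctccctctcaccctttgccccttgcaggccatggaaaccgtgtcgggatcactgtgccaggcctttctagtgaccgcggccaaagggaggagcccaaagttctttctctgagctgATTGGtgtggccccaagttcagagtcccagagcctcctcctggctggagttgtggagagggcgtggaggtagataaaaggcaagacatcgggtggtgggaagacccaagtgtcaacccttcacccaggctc
Ucp3: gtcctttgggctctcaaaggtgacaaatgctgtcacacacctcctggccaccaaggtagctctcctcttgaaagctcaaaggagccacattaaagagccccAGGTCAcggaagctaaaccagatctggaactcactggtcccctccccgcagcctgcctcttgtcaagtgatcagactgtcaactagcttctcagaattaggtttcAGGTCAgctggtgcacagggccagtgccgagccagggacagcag

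The Ucp3 stretch held 2 matches to AGGTCA, and the Pdk4 stretch 0. Over 32851 RefSeq promoters, 14% held AGGTCA in the same 250 bases. The Pdk4 stretch held 1 match to CCAAT, which 33.8% of promoters held, and neither stretch held GTAAACA, which 3.17% held. A match is a description of letters only.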

How the data were processed

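The scanner files hold spot intensity that the authors obtained with Agilent Feature Extraction 10.10.1.1, per the file headers, background-subtracted and detrended but not normalized between arrays. The authors' deposited table, an alternative here, holds log2 values made with limma, per the submitters' processing notes. From the scanner files, spots marked as outliers were dropped, replicate spots averaged, and each array's 75th percentile subtracted on the log2 scale. Kept were 29249 probes well above background on at least 6 of 8 arrays of a group, and the brightest probe stood for each name. Symbols came from RefSeq by accession or from the array design.

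Groups were compared in R 4.3.3 by limma 3.58.1 (two-sided moderated test of lmFit and eBayes, 24 arrays, no block, Benjamini-Hochberg over all names, threshold 0.05). Correlations used 100000 permutations within groups, or exact permutation within 1 group (scipy 1.17.1). Tables were handled in pandas 2.3.3, and matplotlib 3.10.9 drew the figures. The model was tested on simulated data.

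Members and lists were chosen with earlier results of these data known. Named were all members, list genes past the threshold (otherwise the 2 smallest p), and the 6 names most like Pdk4 and Ucp3. A few genes and probes outside this rule were chosen after their values were seen. They are Ppara, Ppard, Pdhb, markers and probes of Pdk1, Pdp2, Pdha1 and Ucp2. Most pairs of samples with the same replicate number did not deviate together (6 of 24 over r = 0.1), so the number is an alternative block. The pairs ran from r = -0.145 to 0.365, and those of replicate 4 were all over 0.1 (0.306, 0.158 and 0.365). Alternatives were other background correction, scaling, filters, probe rules, blocks, variance models, marker covariates, the deposited table and leaving out arrays. No array was left out of the reported values. The number of arrays limits the precision.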

Additional observations from a re-analysis of the deposited data

Results flagged for a closer look

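In groups of 8 arrays, 1 array stood apart from the others in 2 of the 30 probe and group combinations, where chance gives about 1 in 20. Pdk1 in HFD_O3 was lowest on array 7, at a log2 level of 1.59, with the nearest array at 1.82. Pdk2 in STD_Cont was lowest on array 7, at a log2 level of 4.82, with the nearest array at 5.12.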

How the results depend on the processing

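Pdk4 was lower in HFD_Cont than in STD_Cont and past the threshold in 17 of 21 other settings and 24 of 24 fits that left out 1 array, and Ucp3 in 16 of 21 and 22 of 24. The number of members called in that comparison was 2, and it was 1 with no filter on dim probes, 0 within each slide, 0 with slide and row as a block, and 1 to 3 with 1 array left out. It was 3 with the mean of kept probes and without repeat probes, where Pdp2 was called too, and with only the groups compared, with array weights and without HFD_O3 1 and 7, where Pdp1 was (limma adjusted p from 0.00598 to 0.0318). The names called in that comparison numbered 630, against 177 with median scaling, 136 with no filter, 0 within each slide, 78 with slide and row as a block, 1191 with only the groups compared, 1214 with array weights, 1216 without HFD_O3 arrays 1 and 7, and 203 to 993 with 1 array left out. In HFD_O3 against STD_Cont, 119 names were called, against 62, 48, 0, 51 and 41 under the first 5 of these settings, and 68 to 328 with 1 array left out. In HFD_O3 against HFD_Cont the count was 0, and 0 to 2 with 1 array left out. With the replicate number as a block, 2, 0 and 0 members and 648, 101 and 0 names were called in the 3 comparisons, and under that block no call of a member changed. For Pdp1 with Pdk4, r was -0.44 without the 2 arrays farthest in Pdk4, and -0.71, -0.59 and -0.54 within HFD_O3, HFD_Cont and STD_Cont (exact p from 0.0842 to 0.208), and for Pdk4 with Ucp3 it was 0.78, 0.59 and -0.09 in the same groups (exact permutation p = 0.0328, 0.140 and 0.827). Over 1359 comparisons with other settings, 21 values lost and 7 gained a call, 0 called values changed sign, and 88 values that were not called did. Removal of repeat probes and of HFD_O3 1 and 7, the slow fibre covariate, and leaving out arrays by the second gene of a pair were chosen after seeing the data. The cause of these changes was not tested.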

Other observations

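Of the 6 names most like Ucp3 over the arrays, C2cd3 and Pold3 lie near it on chromosome 7. In the RefSeq order of protein-coding genes, C2cd3 is the next gene before Ucp3 and Pold3 the gene 7 places before it. Of the 22 measured genes among the 12 on each side, 3 had a group-centred r with Ucp3 over 0.5, against 2.30% of all 19938 other names. These were Neu3 (0.62), Pold3 (0.85) and C2cd3 (0.73). Pold3 and C2cd3 had prompted the look at the neighbours, so a count that includes them cannot be tested against the 2.30%. Neu3 was not among the 6 names. Ucp2, the next gene after Ucp3, had a group-centred r of 0.02. The neighbours were looked up after the values were seen, and no cause was tested.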
